A study of Mus musculus with 24 samples.

Results

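The genes described here encode the enzymes that cut the extracellular matrix, the inhibitors that restrain them and the proteins that crosslink and carry its elastic fibers. The members were chosen by name, as every gene of the deposited table whose symbol is a numbered *Mmp*, *Timp*, *Adamts*, *Loxl*, *Mfap*, *Fbn* or *Fbln*, or is *Lox* or *Eln*. There were 61 such genes among the 49452 of the table. They comprised 17 secreted and related matrix metalloproteinases, 6 membrane-type metalloproteinases, 4 tissue inhibitors, 7 ADAMTS proteoglycanases, 3 ADAMTS procollagen N-proteinases, 9 other ADAMTS proteases, 4 lysyl oxidases and 11 genes for elastin, fibrillins, fibulins and microfibril-associated proteins. *Loxl2* shares a row with a second symbol and *Mfap1* carries a letter after its number, so neither was matched, and they were not analysed here.

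Matrix metalloproteinases (MMPs) and ADAMTS proteases are zinc enzymes that cut collagens, proteoglycans and other matrix proteins, and the TIMP proteins block them by occupying the zinc site. Lysyl oxidases oxidize lysines in collagen and elastin so that the fibers become crosslinked, and fibrillins, fibulins and MFAP proteins form the microfibrils on which elastin is laid down. Fat precursors sit in a fibrous matrix, which is remodeled into a basement membrane around each cell as it fills with lipid.

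RNA was sequenced from primary (1°) cells of the stromal-vascular fraction (SVF), the cells left when lipid-filled adipocytes are removed, of interscapular brown (BAT) or perigonadal visceral white (vWAT) fat of young male C57BL/6 mice. Cells received either an siRNA against the long noncoding RNA *H19* (siH19) or a non-targeting control siRNA (siCtrl) by nucleofection. The labels name the control siKO, the siRNA against *H19* siH19_3 and the white depot WAT. They were read here as siCtrl, siH19 and vWAT of the paper. RNA was taken at d0, when the paper calls the cells progenitors, or at d3 of differentiation. The sources used here do not say how d0 lies to the induction step. Each of the 8 groups of depot, siRNA and day had 3 libraries, 24 in all. The questions were how the members changed during differentiation, how the depots differed and what siH19 changed in each. The labels name no altered allele, a single siRNA against *H19* was used, and BAT of several mice could be pooled. The labels do not tie libraries to mice, so the spread between libraries may be technical. The induction and differentiation media differed between depots, with triiodothyronine and indomethacin named for BAT cells and rosiglitazone kept in the later medium of vWAT cells. The library codes of the labels begin with MB-3 for BAT and MB-4 for vWAT, so that depot, medium and library set cannot be told apart.

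Values are FPKM, a count of sequenced fragments divided by transcript length and by the fragments mapped in that library, and the depth in reads is unknown. They summed to 710794 to 841456 per library, and 12311 to 13125 genes reached an FPKM of 1. *H19* was lower in every siH19 library than in every siCtrl library of its depot and day, for example at 99.7, 86.4 and 83.2 FPKM in BAT siCtrl d3 and 12.04, 12.1 and 16.9 FPKM in BAT siH19 d3, a log2 change of -2.64 (SE 0.14, adjusted p = 0.0013). Its level in vWAT was far lower, at 8.19 to 8.90 FPKM in siCtrl d3 and 0.291 to 0.966 FPKM in siH19 d3. In BAT, siH19 left 3.35% of the siCtrl mean at d0 and 15.3% at d3, and in vWAT 10.3% and 6.15%. Replicates 2 and 3 of vWAT siCtrl d0 stood apart by neutrophil transcripts, with *S100a8* at 184 and 77.6 FPKM against at most 4.10 FPKM in the other 22 libraries. *Mmp8*, the neutrophil collagenase, did not move with them (1.63, 1.57 and 1.66 FPKM in the 3 libraries). The adipocyte markers, from *Adipoq* to *Plin1*, summed to 2977 to 3246 FPKM in BAT siCtrl d0 and 37574 to 39286 FPKM at d3. *Ucp1*, the brown-fat uncoupling protein, was listed at 8.84, 11.2 and 16.3 FPKM in BAT siCtrl d3 and at 0 in every vWAT library. Skeletal muscle markers summed to 29.04 to 48.9 FPKM in BAT siCtrl d0 and at most 0.0626 FPKM in any vWAT library, and mesothelial markers to 80.6 to 95.7 FPKM in vWAT siCtrl d0 and 4.86 to 5.90 FPKM in BAT siCtrl d0.

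Testing in a comparison required FPKM of 1 or more in 3 or more of the libraries compared. A call required an adjusted p (limma, Benjamini-Hochberg over all tested genes) under 0.05 together with a 1.3-fold or larger change. Of the 61 members, 46 were tested somewhere and 34 in all 10 comparisons of a pair of groups. Log2 changes were computed from log2(FPKM + 1), so that those of weakly expressed genes come out smaller than their ratios. The members together summed to 8781 to 9094 FPKM in BAT siCtrl d0 and 7823 to 8054 FPKM in vWAT siCtrl d0. At d3 the sums were 1527 to 1717 FPKM in BAT siCtrl, 2789 to 2921 FPKM in BAT siH19, 3979 to 4088 FPKM in vWAT siCtrl and 4163 to 4304 FPKM in vWAT siH19. The sum at d3 was thus lower than at d0 in each library of either depot. Few genes carried it. *Timp1* alone held between 23.0% and 41.5% of the group sums, and *Timp1*, *Lox*, *Mfap5* and *Fbln2* held between 58.6% and 74.4%.

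**Figure D1:**
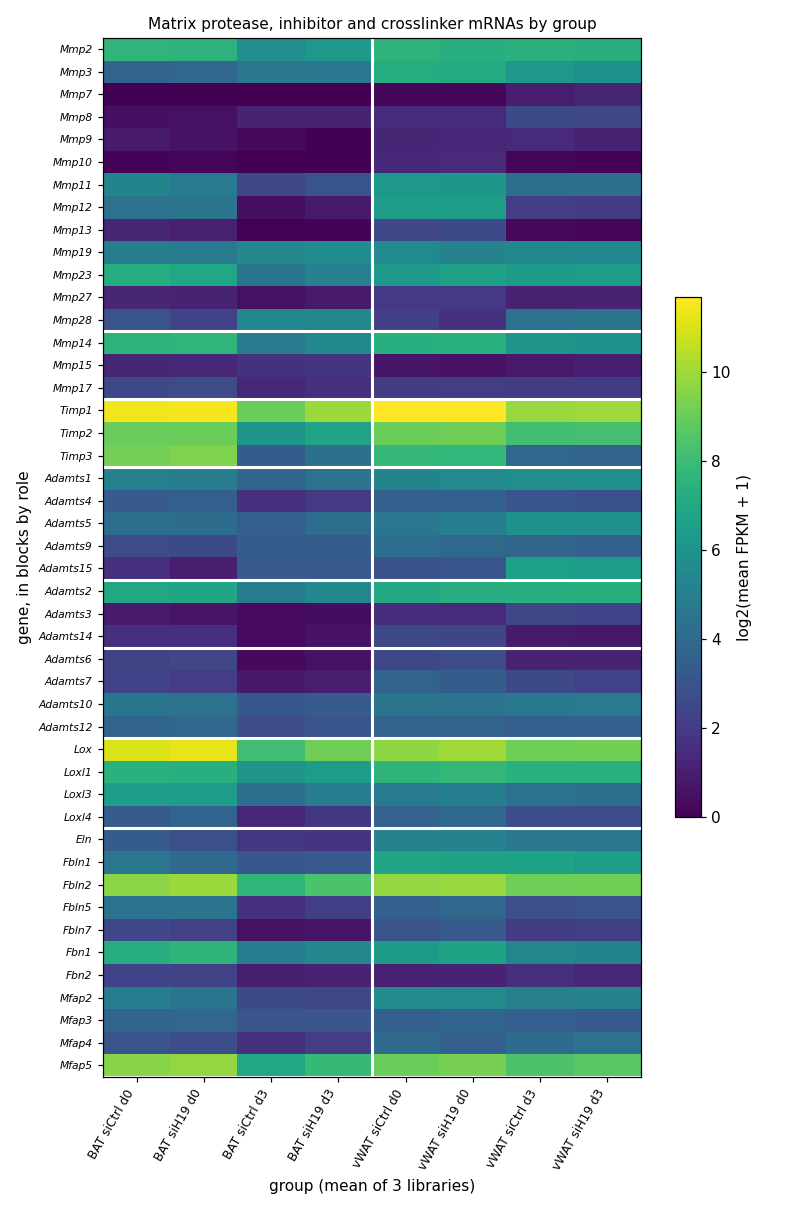
Mean level of each of the 46 tested members (rows, in blocks by role) in the 8 groups (columns, mean of 3 libraries), as log2(mean FPKM + 1). *Timp1*, *Lox* and *Fbln2* were the brightest rows at d0, and the BAT siCtrl d3 column was darker than the BAT siCtrl d0 column for most rows.

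Differentiation lowered most of the tested members in BAT cells and fewer in vWAT cells. In BAT siCtrl, all 40 tested members were called between d0 and d3, 34 lower and 6 higher, where 65.2% of all genes tested were called, 35.3% lower and 29.9% higher. In vWAT siCtrl, 32 of 44 were called, 25 lower and 7 higher, against 50.3% of all genes, 23.9% lower and 26.3% higher. The median log2 change of the tested members was -1.64 in BAT and -0.51 in vWAT, beside -0.10 and 0.01 over all genes tested. Members that passed through a high level on a single day had to differ, so these counts describe the tested members and not all 61. In BAT, the inhibitors *Timp1* to *Timp3*, the 4 lysyl oxidases and all 11 elastic-fiber genes fell, whereas *Mmp28*, *Adamts15*, *Mmp3*, *Adamts9*, *Mmp19* and *Mmp15* rose. Of the 28 members called in both depots, 21 fell in both and 2 rose in both. The other 5 went opposite ways, *Adamts1*, *Adamts5* and *Fbn2* falling in BAT and rising in vWAT, and *Mmp3* and *Adamts9* rising in BAT and falling in vWAT. Without replicate 3 of vWAT siCtrl d0 or replicate 2 of vWAT siCtrl d3, *Adamts9* was no longer called in vWAT. With both libraries that carried neutrophil transcripts left out, its log2 change there was -0.27. Markers moved as well. Stromal precursor markers, among them *Pdgfra* and *Thy1*, summed to 1219 to 1345 FPKM in BAT siCtrl d0 and 384 to 429.7 FPKM at d3, and 6 of 6 were called lower. In vWAT they summed to 626 to 685 FPKM and 706 to 786 FPKM, a higher sum at d3 that *Ly6a* carried (281 to 351 and 499.5 to 582 FPKM), while 4 of 6 were called lower and 1 higher. Smooth muscle and mural markers summed to 3274 to 3591 FPKM at d0 and 448 to 618 FPKM at d3 in BAT siCtrl, and to 1474 to 1691 and 962 to 1182 FPKM in vWAT siCtrl. Their part in the changes of the members was not tested, and in bulk RNA fewer cells of a type and less RNA per cell cannot be told apart.

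**Figure D2:**
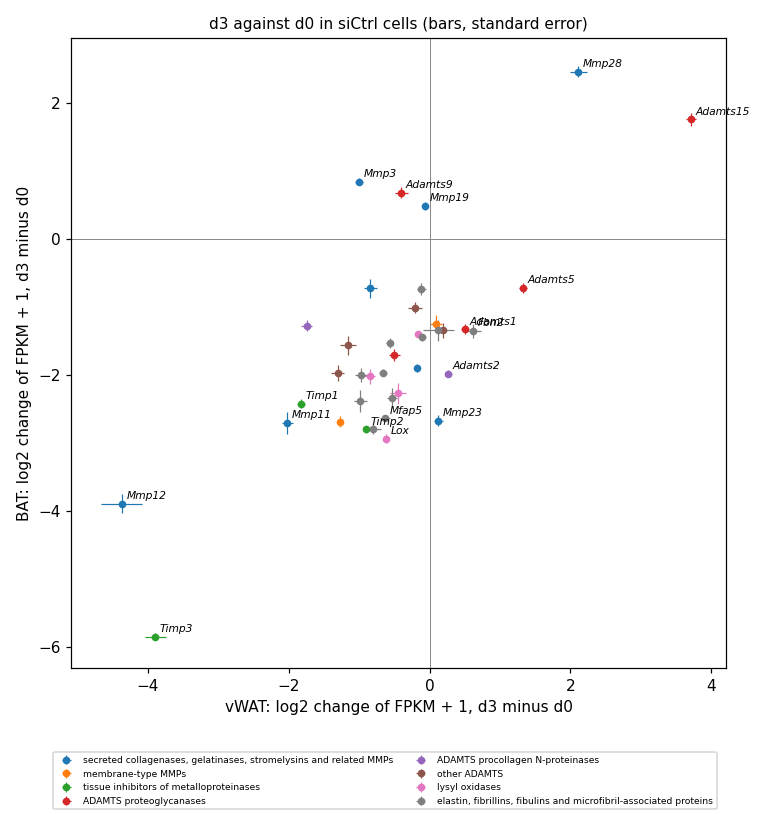
Log2 change of FPKM + 1 from d0 to d3 in vWAT siCtrl (x axis) and BAT siCtrl (y axis) for the 39 members tested in both, with bars for the standard error. *Timp3* and *Mmp12* lay at the lower left (*Timp3* at -5.85 in BAT and -3.89 in vWAT), *Mmp28* and *Adamts15* at the upper right, and most other members fell further in BAT than in vWAT.

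Among the proteases, 10 of the 17 secreted MMP genes lie side by side on mouse chromosome 9 (GRCm38, chr9:7272514-7699585), in the order *Mmp13*, *Mmp12*, *Mmp1b*, *Mmp3*, *Mmp1a*, *Mmp10*, *Mmp8*, *Mmp27*, *Mmp20* and *Mmp7*. RefSeq promoter windows of this build, 250 bases before to 50 bases after the start, were available for 40 of the 61 members. They were searched for TGANTCA, the site of the Fos and Jun dimer AP-1, which reads the same on both strands. The 40 members had 46 windows. The letters were found for 8 of the 10 cluster genes and 0 of the 30 other members with a window, against 8.97% of the 27025 genes of the RefSeq table. Each match lay 35 to 95 bases upstream of the start. *Mmp8* and *Mmp27* had no match in their windows. For the 4 cluster genes with a match that were called between d0 and d3, 30 bases around it are shown with the motif in capitals, because these neighbors share the letters. All 4 fell in vWAT, and *Mmp3* rose in BAT, where *Mmp12* fell and *Mmp10* and *Mmp13* were not tested. In vWAT *Mmp10* and *Mmp13* passed the filter through d0 alone, so that a fall was the only change they could show. Of the cluster genes without a match, *Mmp27* also fell in vWAT (log2 change -0.84) and *Mmp8* rose. The part of the motif in these changes was not tested. The RefSeq start behind the *Mmp12* window lies inside the gene as the deposited table places it (chr9:7344381-7369499).

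*Mmp3* (chr9:7445765-7445794, plus strand): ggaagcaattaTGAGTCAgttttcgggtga

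*Mmp10* (chr9:7502268-7502297, plus strand): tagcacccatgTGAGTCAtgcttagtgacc

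*Mmp12* (chr9:7347319-7347348, plus strand): gacatcaacagTGAGTCAgatagaggattt

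*Mmp13* (chr9:7272468-7272497, plus strand): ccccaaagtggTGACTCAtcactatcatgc

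A match is a string of letters in these windows and not a measured binding site. *Mmp12*, the macrophage elastase, was listed at 18.04, 22.2 and 19.6 FPKM in BAT siCtrl d0 and 0.181, 0.465 and 0.592 FPKM at d3. The vWAT siCtrl values went from 91.9, 82.8 and 76.2 FPKM to 1.90, 5.64 and 2.51 FPKM. The days did not overlap in either depot, and its log2 change was -3.90 (SE 0.14, adjusted p = 5.6e-07) in BAT and -4.37 (SE 0.29, adjusted p = 2.4e-05) in vWAT. *Lyz2*, a macrophage marker, was at 105 to 134 FPKM at d0 and 116 to 148 FPKM at d3 in BAT siCtrl, and at 219.9 to 246 and 421 to 463 FPKM in vWAT siCtrl. The 6 macrophage markers together summed to 131 to 163 FPKM at d0 and 126 to 158 FPKM at d3 in BAT siCtrl, and to 287 to 318 and 464 to 506 FPKM in vWAT siCtrl. The sum was mostly *Lyz2* and did not fall with *Mmp12*, whereas 4 of 5 tested macrophage markers were called lower at d3 in BAT siCtrl and 0 higher, and 4 of 6 lower and 2 higher in vWAT siCtrl. *Csf1r* was at 5.28 to 6.29 FPKM at d0 and 2.01 to 2.12 FPKM at d3 in BAT siCtrl, and at 10.8 to 11.4 and 5.08 to 6.03 FPKM in vWAT siCtrl. *Cd68* was at 13.8 to 14.4 and 4.804 to 5.45 FPKM in BAT siCtrl, and at 34.9 to 40.5 and 24.1 to 25.7 FPKM in vWAT siCtrl. The part of these markers in the fall of *Mmp12* was not tested.

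*Mmp3*, stromelysin-1, which cuts proteoglycans and fibronectin, was listed at 13.1, 12.98 and 12.6 FPKM in BAT siCtrl d0 and 24.7, 23.6 and 23.4 FPKM at d3. Its vWAT siCtrl libraries went from 153, 152 and 138 FPKM to 69.97, 73.98 and 76.2 FPKM. It rose in BAT with a log2 change of 0.84 (SE 0.05, adjusted p = 8e-06) and fell in vWAT with -1.0 (SE 0.06, adjusted p = 1e-05), and all vWAT libraries lay above all BAT libraries on both days. The interaction of depot and day was 1.84 on the log2 scale (adjusted p = 8.8e-09), the largest positive value among the members. *Mmp13*, collagenase-3, which cuts fibrillar collagen, was at 5.02, 5.11 and 3.72 FPKM in vWAT siCtrl d0 and 0.327, 0.144 and 0.120 FPKM at d3, a log2 change of -2.22 (SE 0.13, adjusted p = 1.5e-05). *Mmp10*, stromelysin-2, was at 1.46, 1.88 and 1.39 FPKM in vWAT siCtrl d0 and 0.152, 0.130 and 0.0486 FPKM at d3, a log2 change of -1.21 (SE 0.10, adjusted p = 7.9e-05). Both passed the filter in vWAT through d0 alone, so that their falls there are no independent result. In BAT siCtrl libraries *Mmp13* reached at most 1.73 FPKM and *Mmp10* at most 0.0941 FPKM, and neither was tested between days there. *Mmp8* went the other way in vWAT siCtrl, from 1.63, 1.57 and 1.66 FPKM to 4.79, 4.83 and 5.97 FPKM (log2 change 1.23, SE 0.10, adjusted p = 5.1e-05). *Mmp27* fell in both depots, where the mean at d0 was 3.06 times that at d3 in BAT (log2 change -0.73) and 2.45 times in vWAT (-0.84). *Mmp7* (matrilysin) was listed at 0 in every BAT library and reached at most 1.95 FPKM in vWAT, and *Mmp1a*, *Mmp1b* and *Mmp20* stayed at or below 0.133 FPKM. *Mmp12* and *Mmp1b* overlap on opposite strands by 157 exonic bases, and how strand entered the authors' values is not given in the sources used here.

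**Figure D3:**
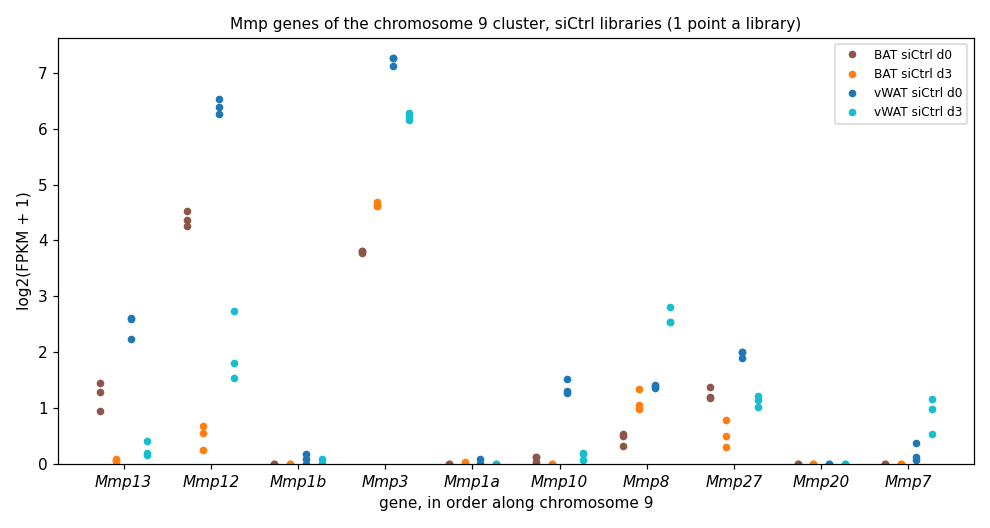
Level of the 10 *Mmp* genes of the chromosome 9 cluster in chromosomal order (x axis) as log2(FPKM + 1) in each siCtrl library (points, 3 a group). *Mmp3* was higher at d3 than at d0 in BAT and lower at d3 in vWAT, *Mmp12* was lower at d3 in both, and *Mmp8* was higher at d3 in vWAT.

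Outside the cluster, *Mmp28*, epilysin, a secreted protease of keratinocytes and other epithelia (chr11:83440768-83463071), was listed at 7.11, 6.38 and 7.50 FPKM in BAT siCtrl d0 and 46.04, 41.7 and 40.9 FPKM at d3. In vWAT siCtrl it went from 4.10, 3.61 and 3.35 FPKM to 22.1, 16.7 and 19.3 FPKM. It rose in both depots without overlap, with a log2 change of 2.46 (SE 0.08, adjusted p = 3.4e-07) in BAT and 2.11 (SE 0.12, adjusted p = 1e-05) in vWAT. *Mmp11*, stromelysin-3, went the opposite way, from 45.2, 30.7 and 36.3 to 3.97, 5.37 and 5.17 FPKM in BAT siCtrl and from 76.9, 69.4 and 74.6 to 16.6, 19.4 and 16.4 FPKM in vWAT siCtrl. Its log2 change was -2.71 (SE 0.16, adjusted p = 6.9e-06) in BAT and -2.02 (SE 0.08, adjusted p = 2e-06) in vWAT. *Mmp14*, the membrane-type MMP that activates pro-MMP2, and its substrate *Mmp2*, gelatinase A, were among the abundant proteases. *Mmp14* went from 189.9, 188 and 184 FPKM to 28.9, 25.1 and 30.98 FPKM in BAT siCtrl (log2 change -2.69). The vWAT siCtrl values went from 159, 161 and 166 FPKM to 68.1, 65.9 and 65.1 FPKM (-1.27), so that it fell in both depots. *Mmp2* (chr8:92827291-92853420) went from 204, 195 and 196 FPKM to 56.4, 49.6 and 51.9 FPKM in BAT siCtrl, and was at 199, 199 and 188 FPKM at d0 and 172, 169.8 and 178 FPKM at d3 in vWAT siCtrl. It fell in BAT with a log2 change of -1.90 (SE 0.06, adjusted p = 2.4e-07), while the difference in vWAT was -0.17, under the minimum fold change. *Mmp23*, an MMP with a cysteine-rich array in place of the usual hemopexin domain (chr4:155650655-155653384), was at 143, 146 and 153 FPKM in BAT siCtrl d0 and 24, 19.9 and 23.2 FPKM at d3. In vWAT siCtrl it was at 82.03, 72.9 and 71.1 FPKM at d0 and 82.7, 85.9 and 78.4 FPKM at d3. It had the most negative depot-by-day interaction of the tested members, -2.80 (SE 0.10, adjusted p = 8.8e-09) on the log2 scale, with a called fall in BAT (-2.67) and a log2 change of 0.13 in vWAT (adjusted p = 0.13). *Mmp19*, an MMP made in many healthy tissues, rose in BAT siCtrl from 28.5, 28.4 and 32.6 to 41.5, 41.9 and 42.7 FPKM (log2 change 0.48). Among the membrane-type genes, *Mmp17* fell in BAT (log2 change -1.25) and *Mmp15* rose from 1.05, 1.57 and 1.52 to 2.201, 2.42 and 2.17 FPKM (0.46), a call lost without replicate 1 of BAT siCtrl d0. *Mmp19* shares 22.3% of its exonic bases, *Mmp28* 12% and *Mmp11* 5.58% with coding genes on the other strand.

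The 3 inhibitors that were tested fell in both depots, and *Timp3* fell more than any other member in BAT and more than all but *Mmp12* in vWAT. *Timp3* (chr10:86300372-86349506), which binds to the matrix and also blocks several ADAM and ADAMTS proteases, was listed at 607, 625 and 610.4 FPKM in BAT siCtrl d0 and 10.1, 9.07 and 9.91 FPKM at d3. Its vWAT siCtrl libraries went from 211, 213 and 234 FPKM to 17.01, 14.4 and 10.7 FPKM. The log2 change was -5.85 (SE 0.05, adjusted p = 1.1e-08) in BAT, where the mean at d0 was 63.4 times that at d3, and -3.89 (SE 0.15, adjusted p = 2.3e-06) in vWAT. *Timp1* (chrX:20870166-20874735), the member with the highest mean FPKM in all 8 groups, was at 2867, 2756 and 2649 FPKM in BAT siCtrl d0 and 524, 468 and 549 FPKM at d3. In vWAT siCtrl it went from 3359.7, 3377 and 3137 FPKM to 865, 956 and 972 FPKM. Both falls were called, with a log2 change of -2.42 (SE 0.07, adjusted p = 1.8e-07) in BAT and -1.82 (SE 0.05, adjusted p = 8.4e-07) in vWAT. *Timp2* (chr11:118301069-118355740), which also takes part in pro-MMP2 activation by MMP14, went from 511, 523 and 496 FPKM to 75.7, 67.4 and 74.2 FPKM in BAT siCtrl. The vWAT siCtrl values went from 526, 534 and 541 FPKM to 284, 290.3 and 278 FPKM. Its log2 change was -2.80 (SE 0.05, adjusted p = 5.7e-08) in BAT and -0.91 (SE 0.03, adjusted p = 1.4e-06) in vWAT. *Timp4* stayed at or below 0.336 FPKM in every library and was not tested. *Timp1*, *Timp3* and *Timp4* lie inside synapsin genes on the opposite strand, and *Timp3* shares 21.3% of its exonic bases with *Syn3*.

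**Figure D4:**
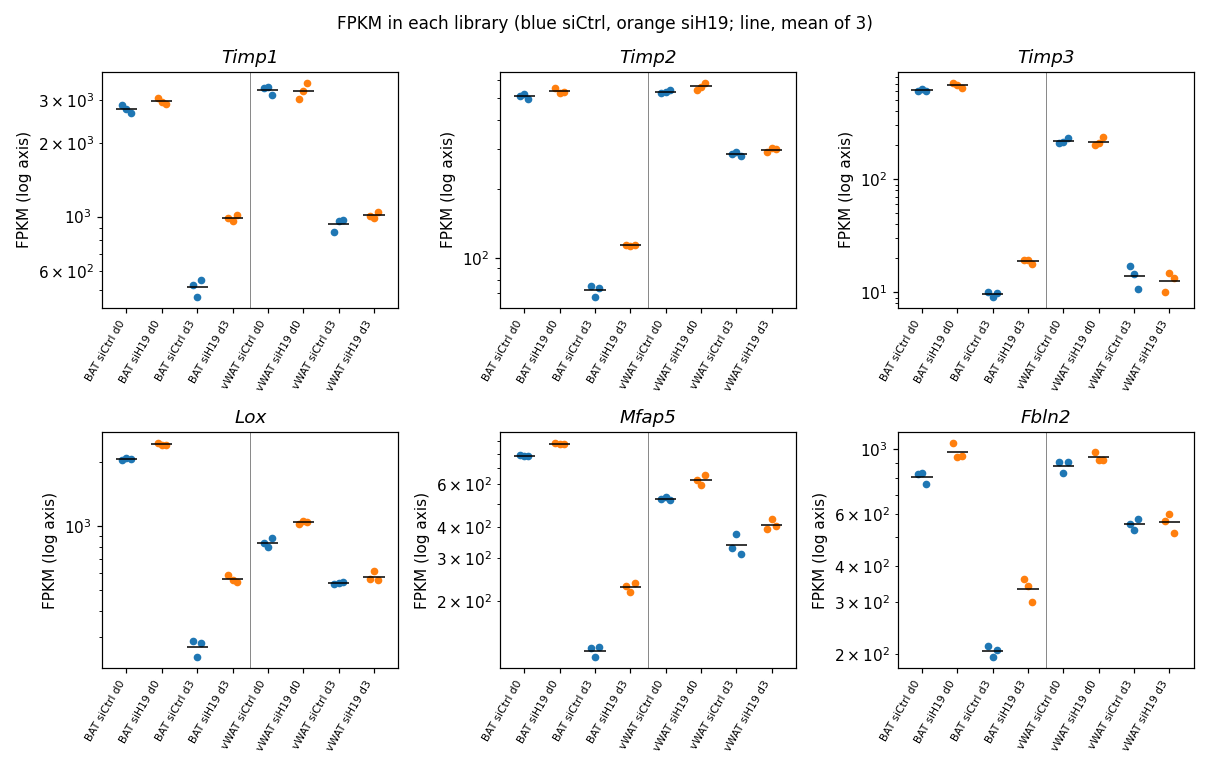
FPKM (log axis) of *Timp1*, *Timp2*, *Timp3*, *Lox*, *Mfap5* and *Fbln2* in each library (points, blue for siCtrl and orange for siH19) with the mean of 3 (line), for the 8 groups along the x axis. In BAT at d3, the 3 siH19 points lay above the 3 siCtrl points for each of the 6 genes, and for all 6 the d3 points lay below the d0 points of the same depot and siRNA.

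The ADAMTS proteases moved less uniformly. *Adamts15* (chr9:30899155-30922452), a proteoglycanase, rose most of all members in vWAT, from 6.95, 6.73 and 5.97 FPKM in vWAT siCtrl d0 to 101, 91.6 and 102 FPKM at d3, a log2 change of 3.72 (SE 0.07, adjusted p = 2e-07). In BAT siCtrl it went from 2.01, 2.001 and 1.995 to 10.04, 9.31 and 8.17 FPKM, a log2 change of 1.76 (SE 0.09, adjusted p = 3.4e-06). *Adamts5*, the aggrecan-cutting protease that also trims versican, went from 17.5, 18 and 16.6 FPKM to 11.1, 9.81 and 9.57 FPKM in BAT siCtrl. Its vWAT siCtrl libraries went from 24.4, 23.4 and 22.4 FPKM to 60.9, 57.4 and 62.1 FPKM. It thus fell in BAT, with a log2 change of -0.72 (SE 0.07, adjusted p = 0.00012), and rose in vWAT, with 1.32 (SE 0.05, adjusted p = 2.6e-06). *Adamts1*, which cuts versican, went from 33.3, 35.9 and 34.5 FPKM to 14.4, 12.1 and 12.9 FPKM in BAT siCtrl (log2 change -1.33) and from 35.7, 38.7 and 37.5 FPKM to 56.1, 50.5 and 53.3 FPKM in vWAT siCtrl (0.50). *Adamts9*, another versican-cutting enzyme, moved the other way, from 5.99, 5.15 and 5.87 FPKM to 9.99, 9.14 and 9.80 FPKM in BAT siCtrl (log2 change 0.68) and from 15.8, 17.4 and 19.1 FPKM to 13.2, 11.99 and 13.7 FPKM in vWAT siCtrl (-0.40), where the call was lost in some fits as given above. *Adamts4*, an aggrecanase, fell in both depots (log2 change -1.71 in BAT and -0.50 in vWAT). Of the N-proteinases, which trim procollagen, *Adamts2* was the abundant form and fell in BAT siCtrl from 120.5, 126 and 122 to 32.4, 28.6 and 30.1 FPKM, a log2 change of -1.98 (SE 0.05, adjusted p = 1.9e-07). In vWAT siCtrl *Adamts2* was at 133, 135 and 126 FPKM at d0 and 163, 151 and 162 FPKM at d3, a log2 change of 0.27 that was below the minimum fold change. *Adamts3* was higher at d3 in vWAT siCtrl, from 1.49, 1.96 and 2.02 to 4.98, 4.51 and 4.44 FPKM (log2 change 1.0), and *Adamts14* was lower in both depots (-1.27 in BAT and -1.75 in vWAT). The 4 other tested ADAMTS genes, *Adamts6*, *Adamts7*, *Adamts10* and *Adamts12*, fell in BAT by 1.01 to 1.98 on the log2 scale, and *Adamts6* and *Adamts7* also fell in vWAT (-1.31 and -1.16).

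Crosslinkers and elastic-fiber genes were lowered in BAT throughout. *Lox*, the main lysyl oxidase, went from 2059, 2089 and 2066 FPKM to 287, 241 and 283 FPKM in BAT siCtrl. In vWAT siCtrl it went from 836, 795 and 878 FPKM to 537, 543 and 548 FPKM. The log2 change was -2.94 (SE 0.07, adjusted p = 1.1e-07) in BAT and -0.62 (SE 0.04, adjusted p = 2.5e-05) in vWAT, and the difference between depots was -2.31 (adjusted p = 7.8e-09). *Loxl1*, which acts on elastin, was at 169.6 to 175 FPKM at d0 and 62.6 to 66.4 FPKM at d3 in BAT siCtrl (log2 change -1.40), and its change in vWAT was -0.17, under the minimum fold change. *Loxl3* and *Loxl4* fell in both depots, with log2 changes of -2.27 and -2.02 in BAT and -0.45 and -0.85 in vWAT, where the *Loxl3* call was lost without replicate 1 of vWAT siCtrl d0. *Mfap5* (chr6:122505845-122529290), a microfibril protein, went from 792, 779 and 782 FPKM to 128, 118 and 129 FPKM in BAT siCtrl. The vWAT siCtrl values went from 524, 529.8 and 517 FPKM to 328, 374 and 312 FPKM. Its log2 change was -2.64 (SE 0.04, adjusted p = 3.7e-08) in BAT and -0.63 (SE 0.07, adjusted p = 0.0002) in vWAT. *Fbln5*, needed to assemble elastic fibers, went from 20.5, 21.4 and 18.7 to 2.07, 1.92 and 2.16 FPKM in BAT siCtrl, a log2 change of -2.80 (SE 0.08, adjusted p = 2e-07), and fell in vWAT with a log2 change of -0.80. *Fbln2*, a fibulin of basement membranes and elastic fibers (chr6:91212455-91272540), went from 826, 830.2 and 759.7 FPKM to 213, 194 and 206 FPKM in BAT siCtrl (log2 change -1.97) and from 904, 829 and 901 FPKM to 557, 528 and 579 FPKM in vWAT siCtrl (-0.66). *Fbn1*, the main fibrillin, fell in both depots (log2 change -2.38 in BAT and -0.98 in vWAT), as did *Eln* (-1.53 and -0.57), *Mfap2* (-2.34 and -0.53) and *Fbln7* (-2.01 and -0.97). Coding genes on the other strand share 20.1% of the exonic bases of *Fbn1* and 11.6% of those of *Loxl3*. *Fbln1*, *Mfap3* and *Mfap4* fell in BAT (log2 change -1.45, -0.73 and -1.35), and their changes in vWAT were -0.11, -0.12 and 0.13 with adjusted p = 0.098, 0.15 and 0.64. *Fbn2*, a fibrillin prominent in development, went from 4.07, 4.23 and 3.94 FPKM to 1.24, 0.852 and 0.893 FPKM in BAT siCtrl (log2 change -1.35) and from 0.988, 0.932 and 1.16 FPKM to 2.13, 1.77 and 2.47 FPKM in vWAT siCtrl (0.62).

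Tested directly over the 12 siCtrl libraries, the change from d0 to d3 differed between depots in 39 of 45 members, where 53.0% of all genes did, at an adjusted p under 0.05 and with no minimum fold. The value was negative, a larger fall or smaller rise in BAT, in 33 (28.1% of all genes) and positive in 6 (24.9%). The most negative were *Mmp23* (-2.80 on the log2 scale), *Lox* (-2.31), *Adamts2* (-2.25), *Adamts5* (-2.05) and *Mfap5* (-2.01). The positive ones were *Mmp3*, *Mmp10* (1.11), *Adamts9* (1.07), *Mmp13* (1.06), *Mmp19* (0.55) and *Adamts14* (0.47). *Mmp10* and *Mmp13* passed the filter mainly through vWAT d0 and lay near 0 in BAT at d3, with *Mmp10* at most at 0.0941 FPKM in BAT siCtrl at d0 too, so that with a pseudocount of 1 there was little room for a fall in BAT, and their positive values are no independent measure of a difference. With a pseudocount of 0.1 in place of 1, *Adamts14* stood at -0.027, and neither it nor *Mmp13* nor *Mmp8* was called. The day was also compared within the siH19 libraries. In BAT siH19, 39 of 41 members were called (32 lower and 7 higher, with 60.6% of all genes called, 29.8% lower and 30.8% higher). In vWAT siH19, 33 of 44 were called (26 lower and 7 higher, with 52.7% of all genes called, 24.5% lower and 28.2% higher). In BAT, 38 members were called with siCtrl and with siH19, 95.0% of the siCtrl calls and 97.4% of the siH19 calls. In vWAT 29 were shared, 90.6% and 87.9%, and every shared call kept its direction. The median log2 change of the tested members in BAT was -1.18 with siH19 and -1.64 with siCtrl, and the test of that difference for each member is given further on.

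The depots already differed in these genes on the earlier day. At d0, 30 of 45 members were called between BAT and vWAT siCtrl, 11 higher and 19 lower in BAT, where 31.2% of all genes were called, 10.2% higher and 21.0% lower. Members that passed the filter through a single depot were bound to be higher there, so these counts describe the tested members. The median of all genes was shifted by -0.13 on the log2 scale, so differences are to be read against that value. With trimmed mean scaling of the libraries, which brought the median to -0.02, 11 members were called higher and 18 lower. All calls together were then 1823 higher and 1974 lower, in place of 1343 and 2753. *Loxl3* (chr6:83034173-83052562), a lysyl oxidase-like enzyme, was at 96.5, 86.04 and 91.7 FPKM in BAT siCtrl d0 and 32.6, 26 and 26.3 FPKM in vWAT siCtrl d0 (log2 difference 1.66, SE 0.10, adjusted p = 2.9e-05). *Timp3* (log2 difference 1.48, SE 0.05, adjusted p = 2.5e-06), *Fbn2* (1.33, SE 0.08, adjusted p = 4.2e-05), *Lox* (1.31, SE 0.04, adjusted p = 2.5e-06) and *Mmp23* (0.96, SE 0.06, adjusted p = 4.7e-05) were also higher in BAT, each without overlap of the libraries given above. *Mmp3* had the largest difference, its BAT mean being 0.0875 times that of vWAT (log2 difference -3.42, SE 0.05, adjusted p = 2.4e-07). *Fbln1*, a basement membrane fibulin (chr15:85205949-85286535), was at 23.2, 22.9 and 23.9 FPKM in BAT siCtrl d0 and 120.3, 119 and 108 FPKM in vWAT siCtrl d0 (-2.26, SE 0.05, adjusted p = 7.8e-07). *Eln*, elastin (chr5:134702593-134747323), was at 9.25, 9.58 and 10.01 FPKM in BAT and 35.3, 36.2 and 37.5 FPKM in vWAT (-1.81, SE 0.05, adjusted p = 2e-06). *Mmp12* (log2 difference -2.02) and *Adamts9* (-1.46) were lower in BAT too. *Timp1* and *Timp2* differed by -0.26 and -0.07, under the minimum fold change. With both libraries that carried neutrophil transcripts left out, vWAT siCtrl d0 kept a single library, and the log2 difference of *Mmp17* (0.53) was 0.38. *Mmp15* (0.54) was not called without replicate 2 of vWAT siCtrl d0.

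At d3, nearly all tested members were lower in BAT. Of 42 tested, 40 were called, 38 lower and 2 higher in BAT, where 48.6% of all genes were called, 32.1% lower and 16.5% higher. Members that passed the filter through vWAT alone were bound to be lower in BAT, so these counts describe the tested members and not all 61. Without replicate 1, 2 or 3 of vWAT siCtrl d3, 36 members were tested and 31, 33 and 31 were called. The median of all genes was shifted by -0.16, and with trimmed mean scaling (median -0.04) 34 members were called lower and 2 higher, while all calls together were 2801 higher and 3372 lower in place of 2162 and 4216. *Mmp28* (log2 difference 1.11, SE 0.10, adjusted p = 0.00011) and *Mmp15* (0.85, SE 0.08, adjusted p = 0.00014) were the genes that were higher. *Fbln1* was at 7.80, 8.02 and 7.99 FPKM in BAT siCtrl d3 and 109.5, 105 and 108 FPKM in vWAT siCtrl d3 (log2 difference -3.60, SE 0.04, adjusted p = 1.1e-07), and *Adamts15* differed by -3.29 (SE 0.08, adjusted p = 5.6e-07). *Eln* was at 2.52, 2.73 and 2.78 FPKM in BAT and 25.1, 24.6 and 22.9 FPKM in vWAT (-2.78, SE 0.07, adjusted p = 5.4e-07). *Mfap2*, a microfibril protein that binds fibrillin, was at 5.58, 3.78 and 5.71 FPKM in BAT and 35.7, 33.3 and 30.2 FPKM in vWAT (-2.51, SE 0.14, adjusted p = 1.2e-05), and *Mfap4* at 1.81, 1.77 and 2.76 FPKM in BAT and 21.6, 15.9 and 12.8 FPKM in vWAT (-2.50, SE 0.21, adjusted p = 6.2e-05). No BAT library reached a vWAT library for any of these 5 genes. Genes that had been higher in BAT at d0 were now lower there, among them *Lox* (-1.01), *Mmp23* (-1.84) and *Fbn2* (-0.65). *Timp3* (-0.47) and *Fbn1* (-0.50) were also called lower, but *Timp3* was not called without replicate 1, 2 or 3 of BAT siCtrl d3 or replicate 1 or 2 of vWAT siCtrl d3, *Fbn1* was not called without replicate 2 or 3 of BAT siCtrl d3 or replicate 1 or 3 of vWAT siCtrl d3, and neither was called with trimmed mean scaling. Stromal precursor markers summed to 384 to 429.7 FPKM in BAT and 706 to 786 FPKM in vWAT, with 4 of 6 called lower in BAT and 1 higher. Macrophage markers summed to 126 to 158 and 464 to 506 FPKM, with 5 of 5 called lower in BAT. Their part in the differences was not tested.

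In BAT cells at d3, siH19 raised the tested inhibitors and most lysyl oxidases, along with a minority of the MMP, ADAMTS and elastic-fiber genes, and no tested member was called lower. Of 36 members tested, 15 were called, all 15 higher, where 8.57% of all genes were called, 6.39% higher and 2.18% lower. The median log2 change was 0.44 over the tested members and 0.05 over all genes. With trimmed mean scaling 14 members were called, all 14 higher, while all calls together went from 799 higher and 272 lower to 625 higher and 414 lower. All 3 tested inhibitors, 3 of 4 lysyl oxidases, 3 of 10 elastic-fiber genes, 3 of 9 ADAMTS genes and 3 of 10 MMP genes rose. *Lox* changed most, from 287, 241 and 283 FPKM in siCtrl to 587, 558 and 545 FPKM in siH19 (log2 change 1.06, SE 0.07, adjusted p = 0.0015). *Timp1* was at 524, 468 and 549 FPKM in siCtrl and 987, 963 and 1012 FPKM in siH19 (0.94, SE 0.06, adjusted p = 0.0013), and *Timp3* at 10.1, 9.07 and 9.91 FPKM and 19.5, 19.4 and 17.9 FPKM (0.90, SE 0.07, adjusted p = 0.0019). In none of these genes did the siCtrl and siH19 libraries overlap, where 24.2% of all tested genes had their 3 siH19 libraries above the 3 siCtrl libraries. *Mfap5* was at 128, 118 and 129 FPKM in siCtrl and 231, 217 and 236 FPKM in siH19 (0.86, SE 0.05, adjusted p = 0.0013), and *Adamts5* at 11.1, 9.81 and 9.57 and 19.5, 16.7 and 16.7 FPKM (0.74, SE 0.09, adjusted p = 0.0049). *Timp2* rose from 75.7, 67.4 and 74.2 to 113, 113 and 114 FPKM (log2 change 0.64) and *Fbln2* from 213, 194 and 206 to 359, 340.3 and 301 FPKM (0.70). The other called members were *Loxl3* (0.67), *Mmp14* (0.59), *Mmp23* (0.55), *Adamts1* (0.55), *Fbln5* (0.54), *Adamts2* (0.48), *Mmp2* (0.47) and *Loxl1* (0.44). For 14 of these 15 members every BAT siH19 d3 library stayed below every BAT siH19 d0 library, with *Lox* at 545 to 587 FPKM in BAT siH19 d3 against 2413 to 2471 FPKM in BAT siH19 d0. The exception was *Adamts5*, at 15.7, 15.8 and 18.8 FPKM in BAT siH19 d0 and 19.5, 16.7 and 16.7 FPKM at d3, where the days overlapped.

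The calls of *Loxl3* and *Adamts1* lay close to the threshold. *Loxl3* was no longer called without replicate 1 or 2 of BAT siCtrl d3 or any replicate of BAT siH19 d3, where its log2 change was 0.52 to 0.78. It also lost the call with no filter, with trimmed mean scaling or with the replicate block. *Adamts1* was not called without replicate 2 or 3 of BAT siCtrl d3 or replicate 1 or 2 of BAT siH19 d3 (0.48 to 0.54), or with no filter. Members that did not pass the test included *Loxl4* (log2 change 0.53, adjusted p = 0.056), *Fbn1* (0.46, adjusted p = 0.3), *Mfap4* (0.45, adjusted p = 0.25) and *Mmp11* (0.45, adjusted p = 0.14). Near 0 were *Eln* (-0.07), *Mfap2* (-0.05), *Mfap3* (-0.02), *Fbln1* (0.10) and *Fbn2* (0.14), with *Mmp3* at -0.06 and *Mmp28*, which had risen most between days in BAT, at -0.11. Markers moved in the same comparison. Smooth muscle and mural markers, such as *Acta2* and *Tagln*, summed to 448 to 618 FPKM in siCtrl and 1052 to 1272 FPKM in siH19, with 4 of 4 tested markers called higher. Stromal precursor markers summed to 384 to 429.7 and 635 to 693 FPKM, with 4 of 5 called higher. Macrophage markers summed to 126 to 158 and 79.7 to 90.4 FPKM, with 2 of 4 called lower, and brown adipocyte markers to 503 to 556 and 299 to 354 FPKM, with 4 of 6 called lower. The general adipocyte markers summed to 37574 to 39286 and 34161 to 36451 FPKM, with 0 of 6 called. The part of these shifts in the changes of the members was not tested.

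**Figure D5:**
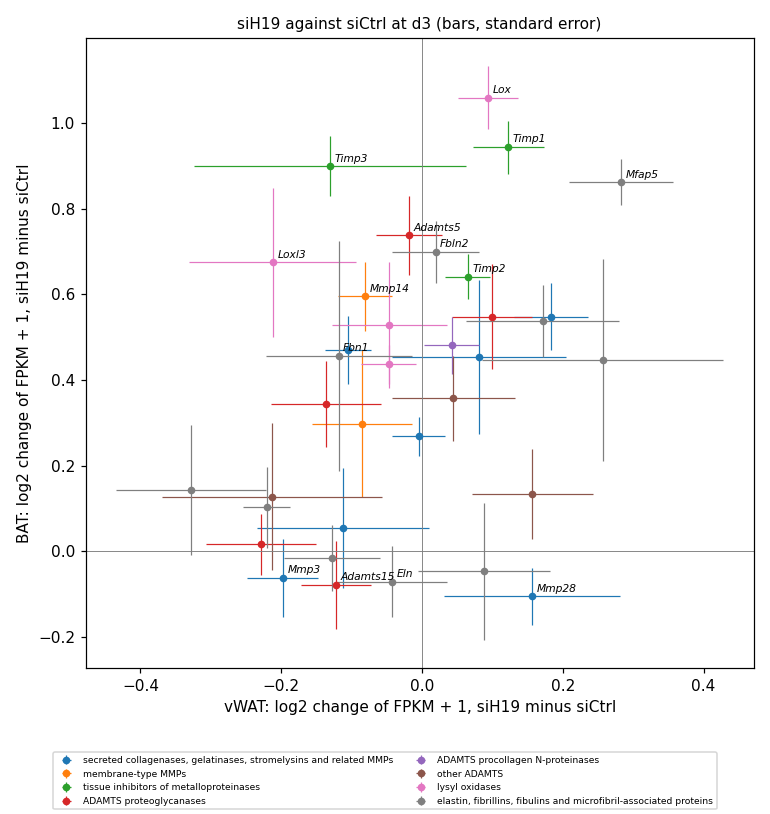
Log2 change of FPKM + 1 between siH19 and siCtrl at d3 in vWAT (x axis) and BAT (y axis) for the 35 members tested in both, with bars for the standard error. *Lox*, *Timp1*, *Timp3* and *Mfap5* lay highest in BAT (from 0.86 to 1.06), and every member lay between -0.33 and 0.28 in vWAT.

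In vWAT cells at d3, limma called 0 of 42 members between siH19 and siCtrl, where 0.0305% of all genes were called, 0.00764% higher and 0.0229% lower, and 9 members (1315 of all genes) had an unadjusted p under 0.05. The median log2 change of the members was -0.01. *Lox* was at 537, 543 and 548 FPKM in vWAT siCtrl d3 and 564, 615 and 559 FPKM in vWAT siH19 d3 (log2 change 0.09), *Timp1* at 865, 956 and 972 and 1002, 991 and 1043 FPKM (0.12), and *Timp3* at 17.01, 14.4 and 10.7 and 10, 14.8 and 13.3 FPKM (-0.13). The largest positive value was that of *Mfap5*, from 328, 374 and 312 to 395, 433 and 404 FPKM (log2 change 0.28, SE 0.07, adjusted p = 0.36). The siH19 effect at d3 itself differed between depots in 15 of 43 members, all 15 with a larger value in BAT, where 10.5% of all genes did, 7.02% in this direction and 3.52% in the other. The largest differences were those of *Timp3* (1.03, SE 0.22, adjusted p = 0.016), *Lox* (0.97, SE 0.09, adjusted p = 0.0014), *Loxl3* (0.89, SE 0.23, adjusted p = 0.037), *Timp1* (0.82, SE 0.08, adjusted p = 0.0014) and *Adamts5* (0.76, SE 0.10, adjusted p = 0.0024). The others were *Timp2*, *Mmp14*, *Fbln2*, *Mfap5*, *Mmp2*, *Loxl1*, *Adamts4*, *Adamts2*, *Mmp23* and *Mmp19* (from 0.27 to 0.68). Leaving out single libraries, *Loxl3* and *Mmp23* lost this call in 9 of 12 fits each and *Adamts4* in 6 of 12. With trimmed mean scaling 13 members were called, all 13 in this direction, while all calls together went from 966 in this direction and 485 in the other to 634 and 755. *H19* itself had a mean of 89.8 FPKM in BAT siCtrl d3 and 8.59 FPKM in vWAT siCtrl d3. In the same test, adipocyte markers were called with a lower value in BAT in 6 of 6, brown adipocyte markers in 4 of 6 and macrophage markers in 3 of 5. Stromal precursor markers were called with a higher value in 4 of 6, and smooth muscle and mural markers in 2 of 5. The part of *H19* level and markers in the depot difference was not tested.

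At d0, siH19 changed few members. In BAT, 3 of 41 were called, all 3 lower, where 1.94% of all genes were called, 1.32% lower. *Mmp28* was at 7.11, 6.38 and 7.50 FPKM in siCtrl and 4.0, 4.63 and 3.84 FPKM in siH19 (log2 change -0.63, SE 0.10, adjusted p = 0.03), *Adamts15* at 2.01, 2.001 and 1.995 and 0.993, 1.003 and 0.903 FPKM (-0.61, SE 0.09, adjusted p = 0.026), and *Fbln1* at 23.2, 22.9 and 23.9 and 14.8, 14.9 and 15.5 FPKM (-0.60, SE 0.05, adjusted p = 0.0098). The siH19 and siCtrl libraries did not overlap for any of them. The *Mmp28* and *Adamts15* calls were lost when any of the 6 libraries was left out, and that of *Fbln1* when any of the 3 siCtrl libraries was left out. In vWAT, 2 of 44 were called, 1 higher and 1 lower, where 1.53% of all genes were, 0.329% higher and 1.20% lower. *Mmp23* was at 82.03, 72.9 and 71.1 FPKM in siCtrl and 104, 100.2 and 101 FPKM in siH19 (0.43, SE 0.06, adjusted p = 0.026), and *Mmp28* at 4.10, 3.61 and 3.35 and 2.38, 2.12 and 2.06 FPKM (-0.55, SE 0.10, adjusted p = 0.046). *Mmp28* was lower in siH19 in both depots at d0, but in vWAT it too lost its call without any of the 6 libraries and with trimmed mean scaling. *Mmp23* lost its call without replicate 2 or 3 of siCtrl or any replicate of siH19, and its log2 change was 0.30 when both libraries with neutrophil transcripts were left out. *Lox* was higher in siH19 at d0 in log2 terms by 0.23 in BAT and 0.32 in vWAT (adjusted p = 0.018 and 0.028), both under the minimum fold change. Adipocyte markers were lower in siH19 at d0, with sums of 2977 to 3246 FPKM in siCtrl and 1494 to 2015 FPKM in siH19 of BAT, and 3991 to 4000.2 FPKM in siCtrl and 2322 to 2631 FPKM in siH19 of vWAT. Calls of a lower level reached 4 of the 6 adipocyte markers in each depot, and their part in these differences was not tested.

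Within BAT, the siH19 effect at d3 was called more positive than that at d0 in 19 of 42 members and more negative in 0, where 9.06% of all genes differed, 7.79% in this direction and 1.27% in the other. The 5 largest of these were *Timp1* (0.84, SE 0.08, adjusted p = 0.00062), *Lox* (0.83, SE 0.08, adjusted p = 0.00062), *Adamts5* (0.79, SE 0.13, adjusted p = 0.0042), *Mmp23* (0.78, SE 0.09, adjusted p = 0.0012) and *Adamts1* (0.76, SE 0.18, adjusted p = 0.025). With trimmed mean scaling, 14 were called, all 14 in this direction, without *Adamts1*, while all calls together went from 1058 and 172 to 529 and 321. *Adamts1* also lost this call without replicate 2 or 3 of BAT siCtrl d0, replicate 2 or 3 of BAT siCtrl d3, or replicate 1 or 2 of BAT siH19 d3. For *Mmp28* (0.53), *Adamts15* (0.53) and *Fbln1* (0.70), the positive value went with a lower level of siH19 libraries at d0. The *Adamts15* call was lost with no filter and with trimmed mean scaling. It was also lost without replicate 3 of BAT siH19 d0, replicate 2 of BAT siCtrl d3, or replicate 1 or 3 of BAT siH19 d3. The loss of *H19* also differed between the days, with 3.35% of the siCtrl mean left at d0 and 15.3% at d3. Its own interaction was 1.99 (SE 0.29, adjusted p = 0.0028), and its part in the values of the members was not tested. The comparisons of siRNA, day and depot share their siCtrl libraries, so their values are not independent of each other.

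Other matrix genes, 49 that are not members, were counted in the same fits. In BAT siCtrl, 40 of 46 tested were lower at d3 and 2 were higher (35.3% and 29.9% of all genes), with the largest falls for the serine protease *Htra1* (log2 change -3.34), the sheddase *Adam19* (-3.17) and the collagen lysyl hydroxylase *Plod2* (-3.08). In vWAT siCtrl 24 of 46 were lower and 7 higher (23.9% and 26.3% of all genes), with the largest changes for *Adamtsl2* (2.70), *Ltbp1* (-2.43) and *Ltbp2* (-2.09), all of them tied to microfibrils. Between depots, 15 of 45 were higher and 9 lower in BAT at d0 (10.2% and 21.0% of all genes), where *Adamtsl3* (2.19), *Fmod* (1.82) and *Ltbp1* (-1.30) led, and 0 were higher and 36 lower in BAT at d3 (16.5% and 32.1%), where *Plod2* (-3.23) and the small proteoglycans *Dcn* (-2.97) and *Lum* (-2.93) led. With siH19 in BAT at d3, 17 of 45 rose and 0 fell (6.39% and 2.18% of all genes), led by *Adam19* (0.74), the collagen prolyl hydroxylase *P4ha3* (0.72) and *Plod2* (0.64). The siH19 effect at d3 differed between depots in 17 of 46, all 17 with a larger value in BAT (7.02% of all genes), led by *Vcan* (0.85), *Adam19* (0.83) and *P4ha3* (0.68). With siH19 in vWAT at d3, 0 of 45 were called (0.0305% of all genes). At d0, 1 of 46 was called in BAT (*Htra1*, -0.45, with 1.94% of all genes) and 0 of 45 in vWAT (1.53% of all genes).

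The 15 members that no comparison tested stayed at or below 1.45 FPKM in every library. Among the secreted metalloproteinases these were *Mmp1b* (highest library 0.133 FPKM), *Mmp1a* (0.0623 FPKM), *Mmp21* (0.0566 FPKM) and *Mmp20* (0.0319 FPKM), and among the membrane-type ones *Mmp16* (0.930 FPKM), *Mmp24* (0.214 FPKM) and *Mmp25* (0.0926 FPKM). The inhibitor *Timp4* reached 0.336 FPKM and the proteoglycanases *Adamts20* and *Adamts8* reached 0.806 and 0.478 FPKM. Of the other ADAMTS genes, *Adamts17* reached 1.45 FPKM in a single vWAT siH19 d0 library, *Adamts19* 0.715 FPKM, *Adamts16* 0.110 FPKM, *Adamts18* 0.0447 FPKM and *Adamts13* 0.0288 FPKM. *Mmp9*, gelatinase B of neutrophils and macrophages, stayed between 0 and 1.91 FPKM, with 1.33, 1.72 and 1.12 FPKM in vWAT siCtrl d0, and so did not move with the neutrophil transcripts.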

How the data were processed

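The authors sequenced RNA of 24 libraries and deposited a table of 49452 genes. Its header names no unit, and per the study's methods the deposited values are FPKM from Cufflinks. The submitters' processing notes name FastQC 0.10.1, TopHat2 2.0.10, STAR, Cufflinks 2.2.1, DESeq2 and R 3.2.2, with build GRCm38.p5. The sources differ on the Cufflinks version and on read type, and the strand setting of the counting is not given in the sources used here. Without counts, depth and counting error are unknown, and 100 abundant genes were listed at 0 in some library, so a 0 may be a failed estimate.

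Each comparison was fitted with limma 3.58.1 (R 4.3.3, with trend) on log2(FPKM + 1) of its own 6 libraries, or 12 for an interaction, over genes at FPKM of at least 1 in at least 3 libraries, with p-values adjusted over all of them by the Benjamini-Hochberg method. A call needed an adjusted p under 0.05 and, outside interactions, a 1.3-fold change. A permutation test of 3 against 3 cannot give a p below 0.1. The fitting code was tested on simulated data. The members and lists were chosen with earlier results of these data known. Values are given per library for up to 5 called members a direction and comparison, by size, among those whose groups did not overlap, and other members by role. The 5 most abundant *Mmp* and *Adamts* members and all inhibitors, crosslinkers and elastic-fiber genes were named in any case. Replicate numbers did not pair the libraries, since correlations of deviations of same-numbered libraries lay between -0.143 and 0.088 in the 10 comparisons of a pair of groups. Alternatives were another pseudocount, no filter, trimmed mean scaling (a share of 0.3 trimmed on each side), no minimum fold, all libraries in 1 fit, a replicate block and leaving out each library. Leaving out both libraries with neutrophil transcripts was added after seeing the data. It kept 1 library of vWAT siCtrl d0 and fitted the other 22 libraries together. Outside the totals over all alternatives, only log2 values are given from it. Figures and tables used Python 3.11.15, pandas 2.3.3 and matplotlib 3.10.9.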

Additional observations from a re-analysis of the deposited data

Results flagged for a closer look

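Effects that differed between groups by the test of the difference itself are gathered here. The effect of siH19 at d3 differed between BAT and vWAT in 15 of 43 tested members (10.5% of all genes), led on the log2 scale by *Timp3* (1.03), *Lox* (0.97), *Loxl3* (0.89), *Timp1* (0.82) and *Adamts5* (0.76), each with the larger value in BAT. The change from d0 to d3 in siCtrl differed between depots in 39 of 45 tested members (53.0% of all genes), led by *Mmp23* (-2.80), *Lox* (-2.31), *Adamts2* (-2.25), *Adamts5* (-2.05) and *Mfap5* (-2.01), each with the lower value in BAT. Within BAT, the effect of siH19 differed between d3 and d0 in 19 of 42 tested members (9.06% of all genes), led by *Timp1* (0.84), *Lox* (0.83), *Adamts5* (0.79), *Mmp23* (0.78) and *Adamts1* (0.76), each with the larger value at d3. These 3 tests share libraries, and depot cannot be told apart from medium and library set. *Loxl3* lost its call in the test of depot and siRNA with trimmed mean scaling and in most fits that left out a single library. *Adamts1* lost its call in the test of siRNA and day with trimmed mean scaling and in several such fits.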

How the results depend on the processing

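Of 307 called values, 275 were called under every alternative that gave a value, and of their 4064 alternatives 3901 kept the call, 162 lost it and 1 changed sign, the depot-by-day value of *Adamts14*, which was 0.47 and became -0.027 (adjusted p = 0.93) with a pseudocount of 0.1. Of 242 values that were not called, 39 were called under some alternative. Counts of called members moved by over 1.5 times only for siH19 at d0, apart from the leave-one-out fits given next. In BAT at d0, 3 became 1 with no filter, 6 with no minimum fold and 0 with the replicate block. Calls over all genes went from 245 to 35, 395 and 2 in the same fits. In vWAT at d0, 2 became 0 with no filter, 1 with trimmed mean scaling, 5 with no minimum fold and 0 with the replicate block. Calls over all genes there went from 200 to 65, 190, 265 and 2. The cause was not tested. Leaving out each replicate in turn gave 13 to 15 called members for siH19 in BAT at d3, 0 to 1 in BAT at d0, 0 in vWAT at d3 and 0 to 1 in vWAT at d0. Over all genes, the d0 fits called 4 to 74 in BAT and 37 to 122 in vWAT. Leaving out 1 library gave 34 to 40 for d3 against d0 in BAT siCtrl, 28 to 32 in vWAT siCtrl, 35 to 38 in BAT siH19 and 29 to 34 in vWAT siH19. It gave 26 to 30 between depots at d0, 31 to 37 at d3, and 12 to 15, 38 to 41 and 15 to 19 for the interactions of depot and siRNA, depot and day, and siRNA and day. The filter still asked for 3 libraries, so some of these fits also tested fewer members. For the day, 35 in place of 40 were tested without a BAT siCtrl d0 library and 41 in place of 44 without a vWAT siCtrl d0 library. Between depots at d3, 36 in place of 42 were tested without a vWAT library. With 1 library left out, the fit assumes the remaining libraries of that group to vary like the others. The replicate block, with numbers that did not pair the libraries, gave 14 called members for siH19 in BAT at d3, 0 in vWAT at d3, 40 and 32 for the day in BAT and vWAT siCtrl, 39 and 33 in siH19, 30 and 40 between depots at d0 and d3, and 12, 40 and 17 for the interactions. At d3 between depots all 6 libraries correlated best with their own number, a hint from the data and not the design. Low values limit the members under about 1 FPKM, for which no depth is known.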
